A study of Mus musculus with 9 samples.

Results

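The 10 genes described here are the cytokines Il1a, Il1b, Tnf and Il6, the NF-kB feedback genes Nfkbia, Nfkbiz and Tnfaip3, the RNA decay factor Zfp36, the cytokine signalling brake Socs3 and the receptor Gpr84. They were chosen by symbol, with earlier results of these data known, and they are 10 of the 27998 genes listed for each library. The cells came from retinas of female Arr1-/- mice, which have no visual arrestin and lose photoreceptors when kept in light. The mice were raised in darkness and then exposed to constant light of about 200 lux for 0 days (day 0, the control), 7 days (day 7) or 20 days (day 20), and were 2 to 5 months old. All 3 groups carried the same deletion, and no group of animals with arrestin was analysed here. Living cells that carried CD45 and CD11b were sorted after warm enzymatic digestion of the retina, on all 3 days. Libraries of transcript 3′ ends were made with the version 2 chemistry of 10x Genomics, 3 for each day. The cells of a time point came from several mice. Nothing in the labels ties a library to an animal, so p-values measure only the spread between libraries.

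NF-kB is a family of transcription factors held in the cytoplasm by inhibitor proteins of the IkB family. In microglia and other myeloid cells, danger signals and microbial products release NF-kB, which induces cytokine genes within a short time. NF-kB also induces its own inhibitors, and further brakes act on the messenger RNA of the cytokines and on the signal from their receptors.

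Depth and cell identity limited what could be measured. The deposited tables held 5022 barcode entries but only 1365 different barcodes, of which 612 occurred in more than 1 library and 270 in all 9. Each barcode was therefore used only in the library in which it had the most unique molecular identifiers (UMIs, counts of captured transcripts). Barcodes were retained when they had at least 200 detected genes, under 10% mitochondrial UMIs, at least 3 UMIs from a list of 20 myeloid genes, and more of these than of any list of non-myeloid genes. This left 740 myeloid cells, of which 254 belonged to day 0, 286 to day 7 and 200 to day 20. The libraries held 17 to 195 of these cells and 20443 to 278150 of their UMIs. Day 7 replicate 3 was the smallest, and 3 UMIs in it equalled 147 CPM (UMIs per 1000000 UMIs of the library's retained cells). All 20 myeloid markers were detected, as were 10 of the 10 markers of homeostatic microglia. Sag, the deleted gene of visual arrestin, had at most 2 UMIs in any library over all barcodes (a check of the deletion only if its 3′ end lies in the deleted part).

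Several of the 10 genes carry known control sequences, and those that bear on how the genes are grouped are shown first. Coordinates are those of mm10 (GRCm38), the build used by the authors, with gene bounds taken here from the GENCODE M21 annotation, and all 10 genes are annotated as protein-coding. Il1a (chr2:129299610-129309972) and Il1b (chr2:129364570-129371139) are neighbours on the minus strand. On the minus strand also lie Tnf (chr17:35199381-35202007), Nfkbia (chr12:55489410-55492647), Nfkbiz (chr16:55811375-55838899), Tnfaip3 (chr10:19000910-19015657), Zfp36 (chr7:28376784-28380253), Socs3 (chr11:117966079-117970047) and Gpr84 (chr15:103308235-103310612). Il6 (chr5:30013114-30019981) lies on the plus strand.

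Promoters were read from RefSeq (GRCm38.p6), as the 250 bases before the start site, and a window was found for 9 of the 10 members, with a pair of windows for Tnfaip3. A match to the kappaB motif, the DNA sequence that NF-kB binds, on either strand was found for 3 of these members (Il6, Nfkbia and Tnfaip3), against 7.25% of all 32851 windows. The AP-1 motif TGANTCA, bound by Fos and Jun proteins, was also found for 3 members (Il1a, Il6 and Tnfaip3), against 6.75% of all windows. The CRE motif TGACGTCA was found for 0 members, against 1.55% of windows. The windows of Nfkbia and Il6 are shown, with a kappaB match 29 and 44 bases before the start site. These genes represent the inhibitor and the cytokine sides of the group. Tnfaip3 had a closer match, 12 bases before a start site, in a window that overlaps an annotated exon and also holds its AP-1 match. The windows of Zfp36, Socs3 and Gpr84 overlap annotated exons too. Capitals mark the kappaB match, and each sequence runs in the direction of transcription.
Nfkbia (chr12:55492648-55492897, minus strand): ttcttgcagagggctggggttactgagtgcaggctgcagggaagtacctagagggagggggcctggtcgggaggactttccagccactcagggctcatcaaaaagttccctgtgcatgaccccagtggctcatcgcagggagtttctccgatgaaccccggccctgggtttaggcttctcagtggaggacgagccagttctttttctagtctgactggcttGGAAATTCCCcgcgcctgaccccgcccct
Il6 (chr5:30012864-30013113, plus strand): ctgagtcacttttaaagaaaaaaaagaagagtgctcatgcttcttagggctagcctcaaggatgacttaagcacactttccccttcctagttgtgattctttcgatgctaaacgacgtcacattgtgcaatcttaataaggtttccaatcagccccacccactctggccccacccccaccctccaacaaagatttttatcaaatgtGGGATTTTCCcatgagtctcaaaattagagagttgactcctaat

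The Zfp36 protein binds AU-rich elements in the 3′ untranslated region (3′ UTR) of messenger RNAs and promotes their decay. The motif TATTTAT, the core of such elements, was counted in the 3′ UTR of 1 transcript per gene, with overlapping matches counted each. It occurred in 8 of the 10 members, against 25.5% of 20599 protein-coding genes. The median 3′ UTR of the members was 769 bases long, against 801 bases over all genes. Tnf had the most matches, 8 in 764 bases, while Il1a, Il1b and Zfp36 itself had 3 each, Nfkbia, Tnfaip3 and Socs3 had 2 each, and Il6 had 1. Nfkbiz and Gpr84 had 0. The stretches of 30 bases with the most matches are shown for 4 members to show how the matches cluster and overlap in the cytokine messages, with the matches in capitals. A match is a description of the sequence and does not show that the element is used.
Tnf (chr17:35199678-35199707, minus strand): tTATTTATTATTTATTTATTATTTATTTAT
Il1b (chr2:129364807-129364836, minus strand): aaccacttaccTATTTATTTATgTATTTAT
Il1a (chr2:129300108-129300137, minus strand): ttttatctatgTATTTATaaataTATTTAT
Zfp36 (chr7:28376962-28376991, minus strand): gggcccttTATTTATgacgacttTATTTAT

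To ask how the 10 genes changed with light exposure, the retained cells of a library were added up to 1 count per gene. At day 7, 8 of the 9 members that could be tested were lower than at day 0, with log2 fold changes from -5.32 (Il1a) to -2.29 (Zfp36). Il1b was the exception and gave a log2 fold change of 1.24 that did not pass the test. At day 20, levels lay mostly between those of days 0 and 7. Of the 9 members, 6 were higher at day 20 than at day 7, a count that fell under several other treatments of the cells, and 0 of 9 passed the test between day 20 and day 0. The tests were edgeR quasi-likelihood tests across 1458 genes, with Benjamini-Hochberg adjustment over all of them and a threshold of 0.05. Il6 had too few libraries with UMIs to be tested. Sums of this kind cannot tell fewer expressing cells from less RNA per cell, so values by cell follow further on.

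Il1a encodes interleukin-1 alpha, a cytokine that is active without cleavage and acts as an alarm signal. It had 734, 1010.0 and 962 CPM in day 0 replicates 1, 2 and 3, then 18.0, 29.3 and 0 CPM at day 7, and 734, 699 and 197 CPM at day 20. The day 7 values rested on 8 UMIs in all, against 402 at day 0 and 177 at day 20, and the 3 day 7 libraries lay below every other library. Il1a changed by a log2 fold of -5.32 ± 0.55 (SE) at day 7 against day 0 (edgeR adjusted p = 1.4e-05) and 4.67 ± 0.56 at day 20 against day 7 (edgeR adjusted p = 0.00059). At day 20 against day 0 it was -0.65 ± 0.36 (edgeR adjusted p = 0.397), although all 3 day 20 libraries lay below the day 0 libraries, the closest by less than 1 CPM.

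Tnf encodes tumour necrosis factor, a central activator of NF-kB in neighbouring cells. It measured 648, 479 and 558 CPM at day 0, 57.5, 29.3 and 97.8 CPM at day 7 and 443, 611 and 98.4 CPM at day 20. The day 0 and day 7 libraries did not overlap, and the lowest day 20 library was within 1 CPM of the highest day 7 library. For Tnf the log2 fold change was -3.32 ± 0.52 at day 7 against day 0 (edgeR adjusted p = 0.00024) and 2.90 ± 0.53 at day 20 against day 7 (edgeR adjusted p = 0.0050).

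Il1b encodes interleukin-1 beta, which needs cleavage by the inflammasome before release. Its levels were 73.4, 78.1 and 164 CPM at day 0, 306, 78.2 and 293 CPM at day 7 and 165, 573 and 98.4 CPM at day 20. The groups overlapped in every pair of days, and replicate 2 of day 7 was as low as the day 0 libraries. The log2 fold change of Il1b was 1.24 ± 0.60 at day 7 against day 0 (edgeR adjusted p = 0.141), 1.65 ± 0.58 at day 20 against day 0 (edgeR adjusted p = 0.163) and 0.41 ± 0.56 at day 20 against day 7 (edgeR adjusted p = 0.774). The last of these turned to -0.13 without day 7 replicate 2 and to -0.83 without day 20 replicate 2. Whether the change of Il1b differed from that of Il1a was not tested.

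Il6, the gene of interleukin-6, which signals through STAT3, was almost confined to 1 cell. Day 0 replicates 1, 2 and 3 held 1, 0 and 72 Il6 UMIs, and all 72 came from a single cell of replicate 3. No Il6 UMI was found in the 286 cells of day 7 or the 200 cells of day 20, which allows up to 7.48 and 10.8 CPM (3 UMIs of the summed total, counting error only). The cell with 72 UMIs had 6153 UMIs in all, among them 38 of Nfkbia, 34 of Socs3, 27 of Zfp36, 20 of Nfkbiz and 13 of Tnfaip3, but 1 of Il1a and 0 of Il1b. Its identity as a myeloid cell was weak. It had 1.17% of its UMIs in the myeloid list against a median of 5.49%, and only 17 of the 740 cells had less. The myeloid genes Csf1r, Itgam and Lyz2 were at 0 in it, while Tyrobp had 21 UMIs, C1qb 8, C1qa 7 and C1qc 2. The myeloid list had 72 UMIs in this cell and the rod list had 55. A further 97 Il6 UMIs lay under the same barcode in the other 8 libraries.

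Nfkbia encodes IkB alpha, the inhibitor that returns NF-kB to the cytoplasm. It had 1358, 1619 and 1858 CPM at day 0, 219, 235 and 147 CPM at day 7 and 607, 1385 and 369 CPM at day 20. Each day 7 library lay below each library of the other days. Nfkbia gave a log2 fold change of -2.80 ± 0.41 at day 7 against day 0 (edgeR adjusted p = 0.00016) and 1.84 ± 0.41 at day 20 against day 7 (edgeR adjusted p = 0.0167).

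Nfkbiz encodes IkB zeta, a nuclear member of the IkB family needed for the induction of some secondary targets such as Il6. Its levels were 704, 718 and 776 CPM at day 0, the narrowest day 0 range among the members in proportion to the level, then 93.5, 39.1 and 97.8 CPM at day 7 and 392, 409 and 73.8 CPM at day 20. The third day 20 library fell within the day 7 range, and all day 20 libraries lay below the day 0 libraries. Nfkbiz changed by a log2 fold of -3.16 ± 0.46 at day 7 against day 0 (edgeR adjusted p = 0.00016) and 1.97 ± 0.48 at day 20 against day 7 (edgeR adjusted p = 0.0274).

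Tnfaip3 encodes A20, a ubiquitin-editing enzyme that shuts off the signal from cytokine receptors to NF-kB. It had 208, 338 and 525 CPM at day 0, 21.6, 9.78 and 97.8 CPM at day 7 and 75.9, 227 and 49.2 CPM at day 20. The value of 97.8 CPM came from 2 UMIs in the smallest library, and day 7 overlapped with day 20 but not with day 0. Its log2 fold change was -3.75 ± 0.67 at day 7 against day 0 (edgeR adjusted p = 0.00073), and the value of 2.40 ± 0.72 at day 20 against day 7 did not pass the test (edgeR adjusted p = 0.067).

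Zfp36 was the member found in the most cells. It had 1248, 1255 and 1476 CPM at day 0, 298, 215 and 196 CPM at day 7 and 1076, 630 and 246 CPM at day 20. Days 0 and 7 did not overlap, nor did days 0 and 20, while days 7 and 20 did. The log2 fold change was -2.29 ± 0.40 at day 7 against day 0 (edgeR adjusted p = 0.00066) and 1.32 ± 0.41 at day 20 against day 7, which did not pass the test (edgeR adjusted p = 0.078).

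Socs3, which is induced by STAT3 and blocks the receptors that activate it, had 936, 1567 and 995 CPM at day 0, 93.5, 48.9 and 147 CPM at day 7 and 1038, 686 and 172 CPM at day 20. As for Tnf, each day 7 library lay below every other library, and days 0 and 20 overlapped. The log2 fold change of Socs3 was -3.69 ± 0.54 at day 7 against day 0 (edgeR adjusted p = 0.00015) and 2.87 ± 0.54 at day 20 against day 7 (edgeR adjusted p = 0.0070).

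Gpr84 encodes a receptor for medium-chain fatty acids that is induced in activated myeloid cells. It had 91.8, 276 and 87.5 CPM at day 0, 25.2, 0 and 0 CPM at day 7 and 304, 479 and 73.8 CPM at day 20. Day 7 lay below the other days, but only 7 UMIs were counted there, all in replicate 1, and the fitted changes therefore depend on few transcripts. In the fit, the log2 fold change of Gpr84 was -3.12 ± 0.81 at day 7 against day 0 (edgeR adjusted p = 0.0115) and 4.10 ± 0.79 at day 20 against day 7 (edgeR adjusted p = 0.0083), and 0.99 ± 0.55 at day 20 against day 0 (edgeR adjusted p = 0.398).

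**Figure D1:**
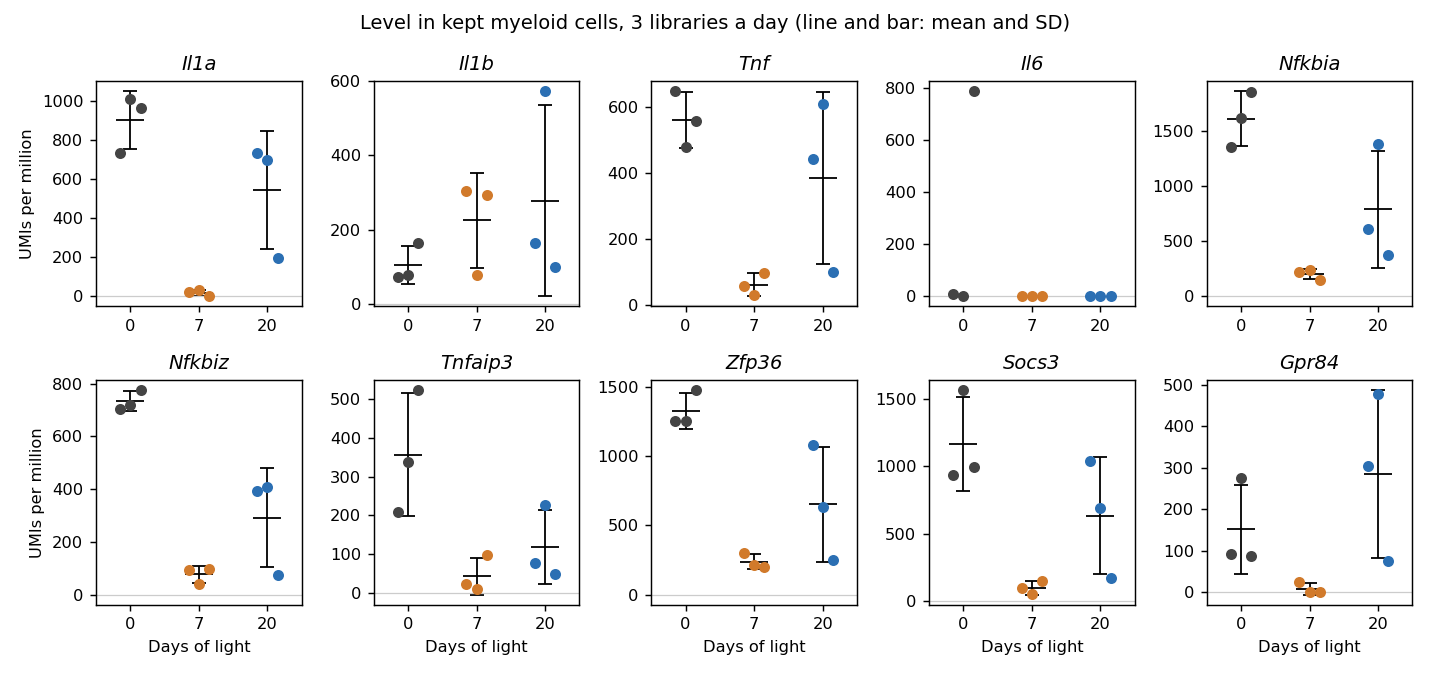
Each panel plots the level of 1 gene in CPM (y axis, linear, scaled per panel) against days of light (x axis), with 1 point per library and the mean and SD over 3 libraries as a line and bars, which are left out for Il6. Day 7 points lie below all day 0 points for 8 of the genes. They lie below all other points for 5 of these genes (Il1a, Tnf, Nfkbia, Socs3 and Gpr84). The share of all genes below both other days was not counted. Il1b is scattered, and Il6 is high in only 1 day 0 library.

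In numbers of genes, 8 of 9 tested members fell at day 7 against day 0, while 16.2% of all 1458 genes fell and 9.05% rose. The same 8 members had day 7 libraries that did not overlap the day 0 libraries, which held for 25.2% of all genes in that direction. The median log2 fold change of the 9 members was -3.16, against -0.08 over all genes. At day 20 against day 0, 0 of 9 members and 2.74% of all genes passed the test by edgeR. Il1b, Nfkbia, Nfkbiz, Tnfaip3 and Zfp36 had unadjusted p of 0.0119, 0.0163, 0.00683, 0.0166 and 0.0174 in that comparison, in which 16% of all genes had an unadjusted p under 0.05. The log2 fold changes ran from -1.35 ± 0.50 (Tnfaip3) to 1.65 ± 0.58 (Il1b), and the lowest edgeR adjusted p was 0.117 (Nfkbiz, -1.19 ± 0.38). The medians were -0.82 for the members and -0.01 for all genes. The day 20 libraries of Il1a, Nfkbiz and Zfp36 all lay below the day 0 libraries, which held for 13.9% of all genes. At day 20 against day 7, 6 of 9 members rose (Il1a, Tnf, Nfkbiz, Nfkbia, Socs3 and Gpr84) and 4.12% of all genes rose, with medians of 2.40 and 0.06. The day 20 libraries of Il1a, Tnf, Nfkbia, Socs3 and Gpr84 all lay above the day 7 libraries, which held for 13.5% of all genes. The comparisons share libraries, so a fall at day 7 and a rise from day 7 to day 20 are not independent. Because the members were chosen with earlier results known, the values of all genes are set beside theirs only as a description.

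**Figure D2:**
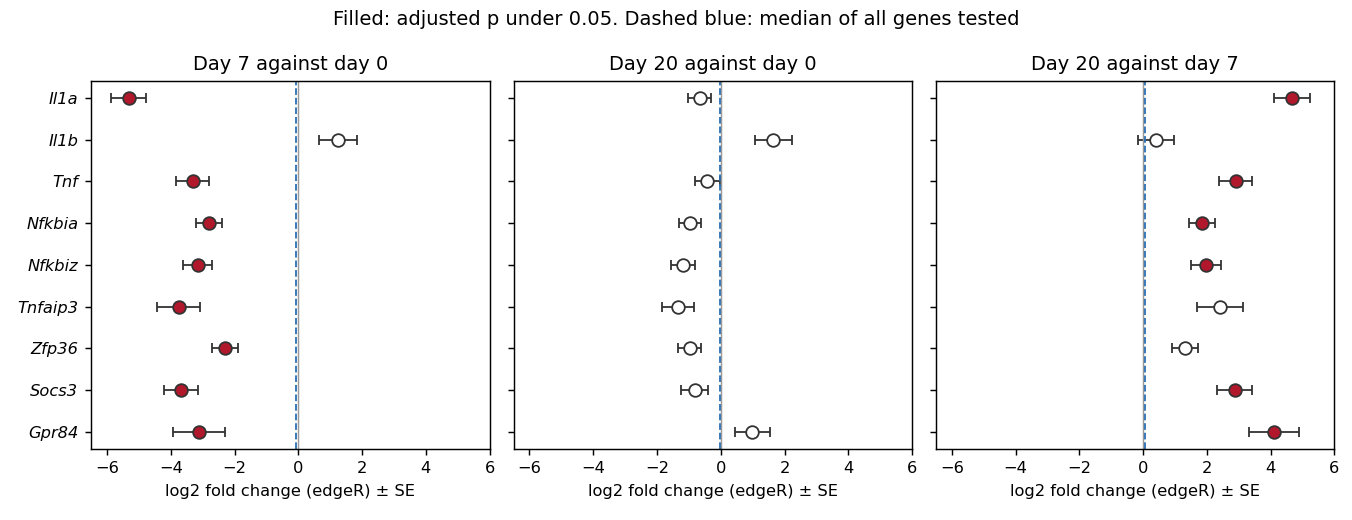
Points give the log2 fold change of the 9 tested genes (x axis) with its SE in 3 comparisons of days, filled where the edgeR adjusted p was under 0.05, and the dashed line marks the median of all genes tested. At day 7 against day 0, 8 of 9 points are filled and lie left of -2, none is filled at day 20 against day 0, and 6 are filled at day 20 against day 7.

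The fall at day 7 depended on how barcodes were assigned. With every deposited barcode entry left in place, 3 of the members fell (Il1a, Nfkbiz and Tnfaip3), against 1.2% of the 2673 genes then tested, and the log2 fold change of Il1a was -0.98 in place of -5.32. The rise from day 7 to day 20 held for 0 members with the deposited entries (0% of all genes) and for 1 with non-myeloid cells included (0.476% of all genes). It held for 1 without day 7 replicate 1, for 1 without day 7 replicate 2 and for 3 without day 20 replicate 2. Without day 20 replicate 3 it held for 8. The share of all genes was not counted for the fits without 1 library. When each cell was thinned to 500 UMIs, so that deep cells weighed no more than others, 6 members could be tested. All 6 fell at day 7 against day 0 (12.7% of the 513 genes tested), Il1a and Socs3 rose from day 7 to day 20 (2.53% of genes), and Nfkbia (-1.70, edgeR adjusted p = 0.0049) and Zfp36 (-1.58, edgeR adjusted p = 0.0121) were lower at day 20 than at day 0 (6.43% of genes).

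Other gene groups moved over the same days. The summed level of 17 immediate-early genes, which are transcribed within minutes of a stimulus and contain none of the 10 members, ranged from 38474 to 49706 CPM at day 0, from 2943 to 6897 CPM at day 7 and from 8932 to 23195 CPM at day 20. Homeostatic microglia markers ranged from 13687 to 15894 CPM, then 3901 to 4402 CPM and 8095 to 10623 CPM. Monocyte and macrophage markers had the opposite order, with 15.6 to 54.7 CPM, then 665 to 1076 CPM and 233 to 418 CPM. Most of these UMIs at days 7 and 20 came from 1 gene, Ms4a7. It gave 198 of 260 in day 7 replicate 1 and 33 of 37 in day 20 replicate 2. Only 1 of the 12 genes of this list could be tested. The 4 MHC class II genes, which present antigen, summed to 620 to 2110 CPM, then 10062 to 40405 CPM and 5932 to 14717 CPM. Neutrophil markers were at 29.3 to 245 CPM over all days. Transcripts of the rod list made up 1135 to 6679 CPM at day 0, 352 to 1125 CPM at day 7 and 195 to 1101 CPM at day 20. The part of any of these in the changes of the 10 genes was not tested.

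Of 16 tested immediate-early genes, 15 fell at day 7 against day 0, with a median log2 fold change of -2.91. The largest falls were those of Klf2 (-4.48 ± 0.47), Klf4 (-4.41 ± 0.47), Jun (-3.94 ± 0.47) and Junb (-3.54 ± 0.40). At day 20 against day 7, 8 of the 16 rose, led by Klf2 (2.94 ± 0.46) and Junb (2.32 ± 0.39), and 8 were lower at day 20 than at day 0, led by Klf4 (-2.49 ± 0.39) and Dusp1 (-2.07 ± 0.32). Of 7 tested heat shock genes, 5 fell at day 7, with Hspa1a at -4.87 ± 0.73 and Dnajb1 at -3.34 ± 0.51, while the mitochondrial chaperonin gene Hspe1 rose by 1.17 ± 0.33 on the log2 scale. All these changes had edgeR adjusted p under the threshold.

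The rest of the pathway was mostly below the level needed for a test, which required UMIs in several libraries, so the following counts do not describe whole lists. Of 12 subunits and kinases of the NF-kB pathway, 1 could be tested and it did not pass. Among 13 further inhibitors and feedback genes, 2 could be tested and both fell at day 7 against day 0. They were Nfkbid, which encodes a nuclear IkB protein (log2 fold change -3.19 ± 0.66), and Nfkbib, the gene of IkB beta (-2.32 ± 0.70). Of 17 cytokine receptors and adaptors, 4 were tested and Il6ra, the interleukin-6 receptor chain, fell at day 7 (-3.55 ± 0.56) and rose from day 7 to day 20 (2.35 ± 0.63). Of the inflammasome genes 2 were tested, and the sensor gene Nlrp3 fell at day 7 (-3.31 ± 0.64). Transforming growth factor Tgfb1 was the 1 tested gene of 16 antagonists and other cytokines, and it fell (-1.39 ± 0.31).

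Of 24 further NF-kB target genes, 14 were tested at day 7 against day 0, of which 4 fell and 1 rose. The adhesion molecule gene Icam1 (-3.63 ± 0.65) and Marcksl1 (-3.39 ± 0.51) fell most, followed by the chemokines Ccl3 (-2.03 ± 0.65) and Ccl12 (-1.67 ± 0.53), whereas the chemokine Cxcl16 rose by 2.21 ± 0.51. From day 7 to day 20, 3 of the 14 rose, Ccl12 (3.37 ± 0.54), Icam1 (3.18 ± 0.67) and Marcksl1 (2.61 ± 0.53). Of 15 genes of RNA decay and STAT feedback, 5 were tested and Zfp36l2, a relative of Zfp36 (-1.37 ± 0.36), and the phosphatase gene Ptpn1 (-1.20 ± 0.41) fell at day 7. The changes named for these lists had edgeR adjusted p from 0.00020 for Marcksl1 to 0.0447 for Ptpn1. Outside the immediate-early and heat shock genes, 0 tested genes of these lists passed the edgeR threshold at day 20 against day 0.

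The level of a member over the 9 libraries was closely followed by other genes. For each member with at least 50 UMIs and a test, other genes were taken from the pair with the highest Pearson correlation of log2 CPM, as a description over 9 libraries that differ by day. Il1a was most like Sparc (r = 0.988). Nfkbiz was most like Egr1 (r = 0.983) and Plk3 (r = 0.973), Zfp36 like Cebpa (r = 0.984) and Jund (r = 0.981), and Socs3 was close to Ier2 (r = 0.978). Tnf was most like Eif4a1 (r = 0.972), Nfkbia like Anxa3 (r = 0.975) and Olfml3 (r = 0.971), and Tnfaip3 like Cyfip1 (r = 0.974) and Saraf (r = 0.948). The closest genes were less alike for Gpr84 (Lrrc58, r = 0.898) and for Il1b (Fxyd5, r = 0.785).

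The transcripts came from few cells, counted here over the 3 days together. In 740 cells there were 4891 UMIs of the 10 genes. Of these UMIs, 88.1% lay in 85 cells (11.5%) with 4 or more of the genes detected. These cells were chosen by the genes themselves, so a high share was built in. The share in these cells ranged from 77.1% for Il1b to 93.3% for Socs3, leaving aside Il6. The 85 cells were also deep. They held 38.6% of all UMIs, with a median of 4677 UMIs against 835 in the other cells. The immediate-early list made up a median of 4.77% of their UMIs against 0.242%. These medians pool the days, and immediate-early levels differed between days. No doublet caller was run, and whether some of these barcodes held more than 1 cell was not tested.

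Day by day, 53 of the 85 cells were from day 0, 14 from day 7 and 18 from day 20. To set depth aside, each cell with at least 500 UMIs was thinned at random to 500 UMIs. Cells with 4 or more members then made up 9.46%, 13.6% and 8.51% of the cells of the day 0 libraries, 0% in each of the day 7 libraries and 2.08%, 5.26% and 7.14% in the day 20 libraries. The day 0 libraries lay above all others. These were 23 of 209 cells at day 0 and 0 of 253 at day 7, where 0 allows a share of up to 1.19% (3 cells).

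The day 20 level rested on fewer cells than the day 0 level. At day 0, 15 cells held 50% of the 3141 member UMIs, whereas at day 20 only 4 cells (2% of 200) held 726 of 1343. Of these 4 cells, 2 were in replicate 1 and 2 in replicate 2. With these cells set aside, the pooled level of the 10 genes at day 20 was 2729 CPM in place of 4823 CPM. Setting aside the 15 cells at day 0 gave 4624 CPM in place of 7026 CPM. The cells were chosen by their member UMIs, so both drops were built in. They were also deep, as the 4 cells held 18.8% of all UMIs of the retained cells at day 20. The 15 cells held 26.2% of those at day 0. The highest cell at day 20 had 17231 UMIs, of which 120 were Nfkbia, 41 Tnf, 36 Il1b, 35 Socs3 and 32 Gpr84. It had 280 UMIs of the homeostatic microglia list and 0 of the monocyte and macrophage list.

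At day 7 the highest cell had a different content. It held 45 member UMIs among 8782, of which 26 were Il1b, with 0 Il1a and 0 Gpr84. It had 10 UMIs of the microglia list, 19 of the monocyte and macrophage list and 739 of the MHC class II genes. These are single cells and carry no error.

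**Figure D3:**
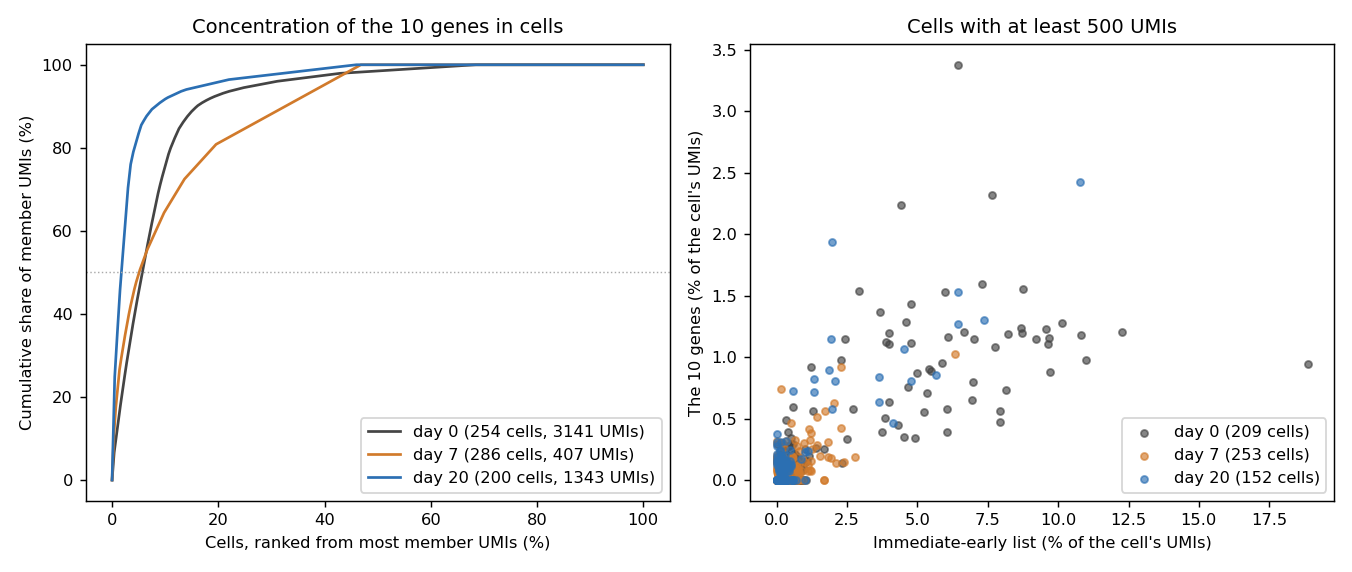
Left, the cumulative share of the UMIs of the 10 genes (y axis, percent) over cells ranked from most to fewest such UMIs (x axis, percent of cells), per day. Right, the share of a cell's UMIs in the 10 genes (y axis) against that in the immediate-early list (x axis) for cells with at least 500 UMIs. At day 20, 2% of the cells reach 50% of the UMIs, and the cells with a high share of the 10 genes mostly lie at high immediate-early shares.

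As a share of cells with a UMI, thinned to 500 UMIs, each gene was set beside the cells left out of the 740 because the rod list led. The thinned shares of single genes are expected values over random draws of 500 UMIs per cell, not counts of cells from 1 draw. Whether rods lack these genes was not tested, so these cells are a comparison and not a measure of background alone. There were 76 such cells, 65 of them from day 0, with a median of 1137 UMIs against 918.5 in the retained cells, and 62 of them could be thinned. In the order of days 0, 7 and 20, Il1a was found in 15.1%, 0.794% and 7.40% of retained cells, against 6.84% of rod cells. Nfkbia was found in 23.4%, 8.17% and 10.7%, against 15.3% of rod cells, and Zfp36 in 25.5%, 9.65% and 13.1%, against 11.9%. Shares of Tnf were 12.4%, 1.95% and 4.82%, against 6.82%. At day 7 the shares of all members but Il1b were below those of the rod cells, which mostly date from day 0. Whether the low shares are background was not tested. The 7 thinned rod cells of days 7 and 20 gave 5.03% for Nfkbia and 4.95% for Zfp36, below the retained cells of day 7. They gave 4.51% for Nfkbiz, 3.80% for Tnfaip3 and 4.51% for Socs3, above the retained cells of day 7 (3.56%, 1.21% and 2.40%). Each of these shares of rod cells rested on 1 or 2 UMIs. For Il1a, Il1b, Tnf, Il6 and Gpr84 the share was 0%. Among the 35 cells led by another non-myeloid list, Socs3 was found in 40% and Zfp36 in 31.4% without thinning. The other members were found in 0% (Il6) to 17.1% (Nfkbia) of these cells. Thinned to 500 UMIs, 21 of the 35 cells gave 21.8% for Socs3 and 20.7% for Zfp36. Il1b was found in 2.08%, 5.78% and 7.01% of retained cells and in 0 of 62 thinned rod cells, which allows a share of up to 4.84% (3 cells), and 1 of 76 rod cells had an Il1b UMI without thinning.

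For Gpr84 the thinned shares were 4.89%, 0.728% and 5.09%, against 1.61% of rod cells. Unthinned, Il1a was found in 27.2%, 2.10% and 13% of retained cells, Il1b in 5.51%, 14.0% and 10.5%, and Zfp36 in 39.4%, 20.3% and 22.5%. The 3 day 7 libraries gave thinned Il1b shares of 6.22%, 3.73% and 11.2%, and the day 0 libraries gave 1.25%, 2.00% and 3.56%. The day 7 values lay above the day 0 values, by little for the closest pair, and this difference in shares was not tested. The value of 11.2% (day 7 replicate 3) rested on 12 cells, and that library held 6 Il1b UMIs in all. The share of all genes with such an order was not counted.

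Members were found together in the same cells. Of 614 cells thinned to 500 UMIs, Nfkbia and Socs3 were found together in 28, where the product of their shares gives 8.09 cells. For Tnf and Nfkbia the number was 21 against 5.54, and for Il1a and Nfkbia 27 against 6.89. For Il1b and Zfp36 it was 6 against 5.70, and for Il1b and Gpr84 1 against 0.855. Il1b was found with Tnf in 8 cells against 2.11, with Nfkbiz in 9 against 2.79 and with Nfkbia in 11 against 5.24. These counts pool the days, and the levels of most members differ between days.

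The retained cells were then split at the median share of UMIs in the immediate-early list (0.284%), which gave 370 cells in each class and at least 5 of each in every library. The classes differed in depth, and the cells of the high class had the higher median UMI number in 7 of 9 libraries. A fit of such classes on cells thinned to 500 UMIs tested 177 genes and no member, so depth was not set aside. Apart from Il6, each gene had a higher level in the high class in most libraries. Socs3, for example, had 135 to 1838 CPM in the high class (median 987) and 0 to 126 CPM in the low class (median 13.8). The high class was above the low class in 9 of 9 libraries for Il1b, Tnf, Nfkbia, Nfkbiz, Zfp36 and Socs3. It was above in 8 for Il1a and Tnfaip3, and in 7 for Gpr84. The share of all genes with such an order was not counted. Some of these differences lay near the floor. Tnf in day 7 replicate 2 had 1 UMI in the high class and 2 in the low class (33.6 against 27.6 CPM). Over all libraries the low class held 14 UMIs of Tnf and 19 each of Il1b, Nfkbiz and Socs3.

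Zfp36 alone passed the filter on low counts and was tested within libraries. Over the 9 libraries Zfp36 was close to Jund (r = 0.981), a gene of the list that set the classes. Its test is therefore not independent of the split. The filter takes sums of either class, so a gene can enter mostly through the high class. Zfp36 measured 208 to 1792 CPM in the high class and 0 to 365 CPM in the low class. Its log2 fold change was 2.65 ± 0.31 (edgeR adjusted p = 4.8e-06, 9 libraries, library as a block). In this fit 18.2% of 423 genes were higher. Without day 7 replicate 3, day 20 replicate 1 or day 20 replicate 3, 2 members passed, and the share of all genes was not counted there. Without a filter on low counts, all 10 members were higher in the high class by edgeR, with log2 fold changes from 2.61 to 4.18, against 2.04% of 13119 genes. That fit leaned upward, with 267 genes higher and 2 lower. Its median log2 fold change over all genes was 0.60, against 0.07 with the filter, and the median of the members was 3.19. The test of Il6 there rests on the cell described above. The class difference of Zfp36 changed by -0.67 ± 0.83 at day 7 and 0.49 ± 0.80 at day 20 relative to day 0, and the interaction of class and day did not pass the test (edgeR adjusted p = 0.853).

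**Figure D4:**
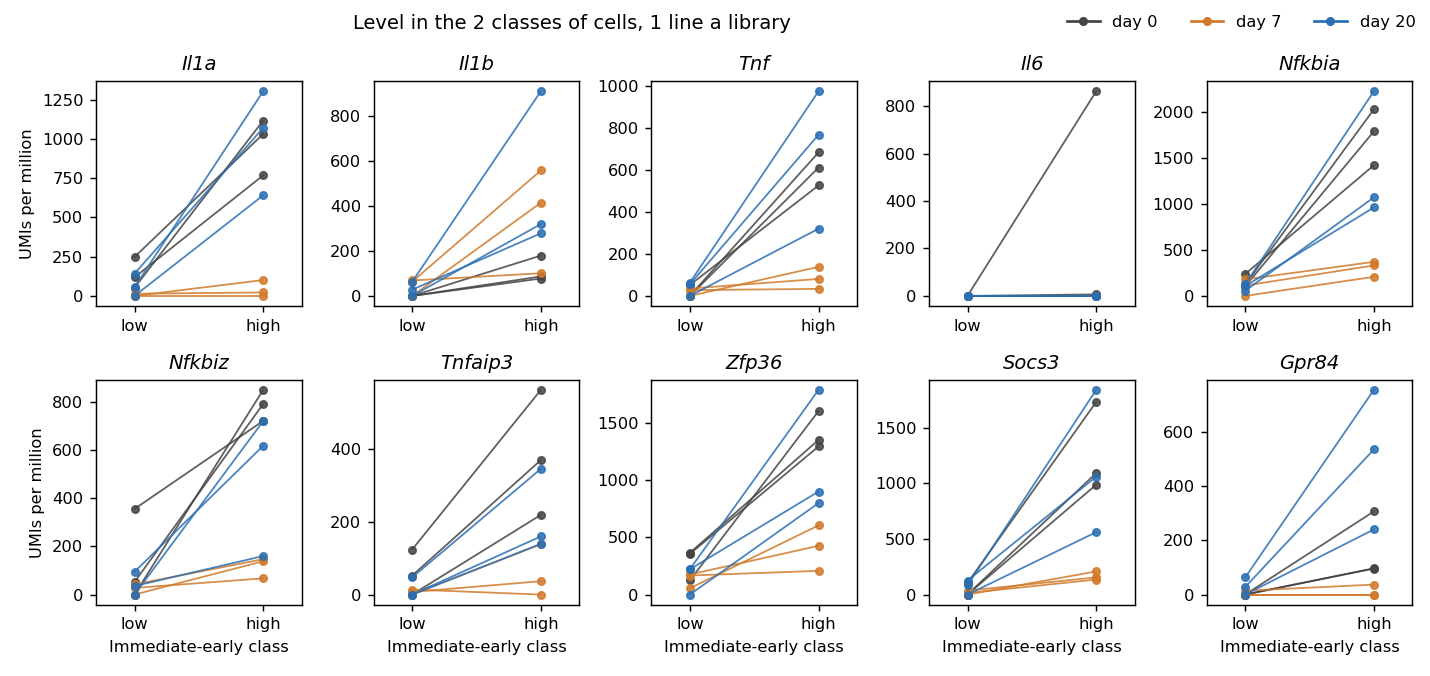
Each line joins the level of 1 gene in CPM (y axis, linear) in the cells of 1 library below (low) and above (high) the median immediate-early share, coloured by day. Every point of the low class lies below 365 CPM, and the high-class points reach up to 2223 CPM for Nfkbia.

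Cells were also split by MHC class II genes, into 330 cells with at least 2 UMIs of them and 259 with 0, using the 8 libraries in which both classes had 5 cells or more. Cells with MHC class II were deeper in 8 of 8 libraries, with medians of 828 to 2888 UMIs against 443.5 to 944.5, and a fit on cells thinned to 500 UMIs tested 0 members. On the full counts 4 members could be tested and all 4 were higher in cells with MHC class II, with log2 fold changes of 2.04 ± 0.27 for Il1a, 2.00 ± 0.33 for Nfkbia, 2.00 ± 0.32 for Nfkbiz and 1.55 ± 0.34 for Zfp36 (edgeR adjusted p from 5.9e-05 to 0.0036). In this fit 15.2% of 422 genes were higher. Without day 0 replicate 1, 2 members could be tested and both passed, and the share of all genes was not counted there. Over all 9 libraries, 340 cells had at least 2 UMIs of these genes, and in 231 of them the genes made up under 1% of UMIs, a value chosen after seeing the data. These 231 cells held 321 of the 327 Il1a UMIs and 553 of the 590 Nfkbia UMIs of the class, and 131 of the 223 Il1b UMIs. The other 109 cells held 6, 37 and 92. Without a filter on low counts the 4 members did not pass, while Il1b did (3.25 ± 0.68, edgeR adjusted p = 0.0021), as did Il6 through its 1 cell, against 0.157% of 12701 genes.

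Both splits were crossed to see which cells held Il1b. Cells with at least 2 UMIs of MHC class II and a high immediate-early share held 209 Il1b UMIs over the 3 days. The cells with MHC class II and a low share held 14, those with a high share and no MHC class II held 6, and those with neither held 2. These classes differed in size, with 141, 199, 163 and 99 cells in that order. As levels the values were 528, 54.2, 28.7 and 29.6 CPM. Cells with 1 UMI of MHC class II were left out. The class with MHC class II and a high share held unlike cells on each day. Its cells had 13051 CPM of the homeostatic microglia list at day 0, 3419.6 CPM at day 7 and 11993 CPM at day 20, and 41.6, 1087 and 230.5 CPM of the monocyte and macrophage list. At day 7, 66 of the 82 Il1b UMIs lay in 21 cells with 1% or more of MHC class II. At day 20, 77 of the 98 lay in 24 cells with less, and at day 0 all 29 lay in such cells. Il1a had 0 UMIs in the 21 cells of day 7, and 146 of its 151 UMIs at day 20 lay in the 24 cells with less. Few cells of 1 library carried most of these UMIs on each of days 7 and 20. Over all retained cells, 85 of 99 Il1b UMIs at day 7 came from replicate 1, and 4 cells held 50%. At day 20, 91 of 108 came from replicate 2, and 3 cells held 50%. These values pool the libraries of a day and were not tested, and levels in this class are not compared between days.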

How the data were processed

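The authors made gene-by-barcode tables of raw UMI counts with Cell Ranger (version not given in the sources used here) on mm10, and these deposited counts were used unchanged. Sums over the retained cells of a library were compared with edgeR 4.0.16 in R 4.3.3, with TMM scaling, its default filter on low counts, the quasi-likelihood test and all 9 libraries in 1 fit. Classes of cells were compared within libraries, with the library as a block and at least 5 cells of each class. CPM divides by all UMIs of the retained cells. The scripts were tested on simulated data. Error values are SE for fold changes, and limits for a count of 0 use 3 counts and cover counting error only.

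The members and the gene lists were chosen with earlier results of these data known. From each list, genes past the threshold were named, at most 4 by size for each comparison. Alternatives were barcode assignment, cell filters, RLE scaling, no filter on low counts, DESeq2 1.42.0, a replicate block, other class definitions and leaving out each library. Thinning all cells before the fits, and the division of cells at 1% of UMIs in MHC class II genes, were added after seeing the data. The study's own tests over single cells were not used. Some genes that the rule on likeness would name are not reported here.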

Additional observations from a re-analysis of the deposited data

How the results depend on the processing

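Percentages in brackets give the share of all tested genes that passed in either direction, where it was counted. The count of members that passed the test at day 7 against day 0 was 8 (25.2%). It was 3 with every deposited barcode entry (2.58%), and 7 to 8 without 1 library. At day 20 against day 0, 0 passed (2.74%). The count was 1 without a filter on low counts (0.404%) and 2 with cells thinned to 500 UMIs (8.97%). It was 0 to 1 without 1 library (1, Nfkbia, without day 20 replicate 2). At day 20 against day 7, 6 passed (5.21%). The count was 0 with the deposited entries (0%), 1 with non-myeloid cells included (0.571%) and 1 with no quality filter. It was 2 with thinned cells (3.12%) and 1 to 8 without 1 library. The log2 fold change of Il1b in that comparison ranged from -0.83 to 1.03 without 1 library and was negative without day 7 replicate 2 (-0.13) and without day 20 replicate 2 (-0.83). For the immediate-early classes, 1 member passed (30.5%). The count was 9 with the deposited entries (64%, and 34.2% in the higher direction) and 10 without a filter on low counts (2.05%). It was 2 with at least 10 cells of each class, 2 with a split within each library and 1 to 2 without 1 library. For the MHC class II classes, 4 passed (16.1%). The count was 2 without a filter (0.157%) and 2 to 6 without 1 library, with 2 without day 0 replicate 1. The expected share of day 0 cells with any member was 54.9% thinned to 500 UMIs and 76.2% thinned to 1000 UMIs. Fewer genes or cells entered some of these fits, and the cause of the differences was not tested. With RLE scaling, DESeq2 or cells of at least 500 UMIs the counts for the 3 comparisons of days were 8, 0 and 6. With DESeq2 the shares of all genes were 18.7%, 3.29% and 4.32%.

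Replicate numbers showed little pairing of the libraries. Same-numbered libraries of different days correlated at -0.023 to 0.152 in their deviations from the day means, and 1 of 9 pairs was over 0.1. For 1 library, every correlation with its own number was above all its correlations with other numbers. With the replicate block the counts were 8, 0 and 6 (24.8%, 2.61% and 4.32% of all genes). Comparisons of days within cells without MHC class II or with a low immediate-early share gave no tested member and no value. The same held for the MHC class II classes with at least 10 cells, without Cd74 or after thinning, and for the immediate-early classes after thinning. Low counts of the members limit the day 7 values most, since Il1a rested on 8 UMIs, Tnfaip3 on 9 and Gpr84 on 7. The retained cells of day 7 were not shallower than the others. Their median was 1044.5 UMIs, against 949.5 at day 0 and 808.5 at day 20.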
